A study of Mus musculus with 39 samples.

Results

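Chemokines are small secreted proteins that direct the movement of leukocytes, and their receptors are G protein-coupled receptors on the cells that respond. The family was taken here as every gene on the array whose name starts with Ccl, Cxcl, Ccr or Cxcr and a digit, together with Cx3cl1, Cx3cr1, Xcl1 and Xcr1. This gave 54 of 29411 gene names, of which 36 were ligands and 18 were receptors. In adipose tissue the family is known for the recruitment of monocytes in obesity, in which Ccl2 acts through the receptor Ccr2. The inducible ligands are made within hours of an inflammatory signal, whereas homeostatic ligands such as Cxcl12, Cxcl13, Ccl19 and Ccl21 are made steadily and place lymphocytes in tissues and lymph nodes.

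RNA of subcutaneous fat from C57BL/6J mice had been hybridised to 39 Agilent arrays of 1 colour, with 1 array per diet and time point. LFC mice ate a normal low-fat diet (10 arrays), HFC mice ate a diet high in fat and sucrose (11 arrays), and HF5, HF20 and HF75 mice ate the HFC diet and received 5 µg, 20 µg or 75 µg of the botanical formulation KAL-1 (6 arrays each). LFC and HFC shared 10 time points, namely Days 6, 10 and 14 and Weeks 0, 3, 6, 9, 12, 15 and 18. The study's methods count weeks from Day 14, so Day 14 and Week 0 mark the same time, measured in separate arrays, and are kept apart here. Day 1 was measured in HFC alone, and KAL-1 groups begin at Week 3. How many mice stand behind an array is not in the labels. The n given is therefore of arrays, and the p-values measure the spread between arrays, which may be technical. All levels are log2 intensities minus the log2 75th percentile of the array, so that a level of 0 is the 75th percentile. Levels of different genes come from different probes and are not set against each other.

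Of the 54 genes, 17 were well above background on all 39 arrays. Another 6 were above background on fewer than 6 arrays and were left out of the statistics. These were Ccr4 (5 arrays), Ccl22 and Ccr8 (3 each), Ccr10 and Ccr1l1 (2 each) and Ccr1 (1). The genes just inside the limit were Ccl1 (6 arrays), Ccl20 (7) and Cxcl17 and Ccl26 (10 each). The other 48 genes comprised 35 ligands and 13 receptors. The share of spots well above background was 49.3% to 87.8% per array, and the mature adipocyte list of 9 genes, which includes Adipoq and Plin1, had a mean level between 1.09 and 5.51 on every array. The names of the HF5 and HF20 arrays of Week 12 were exchanged between the array files and the deposited table of ratios, and the labels of the array files were followed.

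In the GRCm38 annotation many of the genes are neighbours. On chromosome 11 the ligands Ccl2, Ccl7, Ccl11, Ccl12, Ccl8 and Ccl1 form a run of 6, and Ccl5, Ccl9, Ccl6, Ccl3 and Ccl4 a run of 5. On chromosome 5 the neutrophil attracting ligands Cxcl5, Cxcl3, Cxcl15, Cxcl1 and Cxcl2 form a run of 5, and the interferon induced ligands Cxcl9, Cxcl10 and Cxcl11 a run of 3. Chromosome 11 held 14 of the 54 genes, chromosome 9 held 12 and chromosome 5 held 11.

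The promoter table of RefSeq held 37 of the 54 genes. The sequence GGGNNTTTCC, a pattern of the kind bound by NF-kB, was searched on both strands of the 250 bases before each start and was present in 464 of 32851 promoters (1.41%). Among the genes of the family it was present in Cxcl1, Cxcl2, Cxcl3, Ccl9, Ccl20 and Ccr3. The form found most often in the family, GGGAATTTCC, was present in 28 promoters (0.0852%), of which 4 belonged to the family (Cxcl1, Cxcl2, Cxcl3 and Ccr3). It began 71 bases before the start in Cxcl1, 97 bases in Cxcl2 and 73 bases in Cxcl3. The patterns were chosen with the values below in view, and a match is a description of the sequence alone. The 200 bases before the start of these 3 neighbours are printed because Cxcl1 and Cxcl2 were among the genes that set a group of arrays apart, as described next, and that of Cxcl12, a homeostatic ligand with no match, is printed beside them. Of the 8 genes low on those arrays without overlap 5 had a promoter in the table, and Ccl3, Cxcl10 and Cxcr4 among them had no match, while Ccl9 and Ccr3 had a match and overlapped. Other forms of NF-kB sites were not searched, so a promoter without a match may still hold a site. Matches of GGGNNTTTCC on either strand are in capitals, and all 4 genes lie on the plus strand of GRCm38.p6. The stretches are chr5:90891045-90891244 for Cxcl1, chr5:90903699-90903898 for Cxcl2, chr5:90785901-90786100 for Cxcl3 and chr6:117168335-117168534 for Cxcl12.
Cxcl1: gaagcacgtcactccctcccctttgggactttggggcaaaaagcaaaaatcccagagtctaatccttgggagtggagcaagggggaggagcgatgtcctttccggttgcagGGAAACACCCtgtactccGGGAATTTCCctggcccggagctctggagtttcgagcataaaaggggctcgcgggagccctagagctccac
Cxcl2: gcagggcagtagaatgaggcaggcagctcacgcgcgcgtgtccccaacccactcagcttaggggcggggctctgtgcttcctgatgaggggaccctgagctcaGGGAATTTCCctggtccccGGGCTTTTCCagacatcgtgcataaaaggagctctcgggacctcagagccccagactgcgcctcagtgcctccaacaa
Cxcl3: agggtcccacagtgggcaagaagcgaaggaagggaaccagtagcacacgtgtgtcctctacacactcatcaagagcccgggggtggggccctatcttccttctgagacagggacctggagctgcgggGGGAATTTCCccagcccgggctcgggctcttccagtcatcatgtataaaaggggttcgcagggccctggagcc
Cxcl12: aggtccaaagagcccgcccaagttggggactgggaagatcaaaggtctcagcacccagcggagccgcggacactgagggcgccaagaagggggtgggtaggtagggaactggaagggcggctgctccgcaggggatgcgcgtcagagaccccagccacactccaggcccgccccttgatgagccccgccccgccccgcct

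A set of 6 arrays from several diets stood apart from the rest. On these arrays (HFC Day 1, LFC Day 6, HFC Day 6, HFC Day 10, HF75 Week 3 and LFC Week 12) the mean of 8 immediate early genes, which include Fos, Jun and Egr1 and are induced within minutes by many stimuli, was between -0.49 and -0.20, against 4.10 to 5.82 on the other 33 arrays. They cover 3 diets, and 4 of them are from Day 1 to Day 10. Several ligands known to be inducible were low on the same arrays, and others, such as Cxcl9 (-3.83 to 2.51 against 1.01 to 4.48) and Ccl5 (-5.12 to 0.69 against -3.50 to 3.98), overlapped with the rest. Cxcl1, which attracts neutrophils, lay between -6.09 and -4.17 on the 6 arrays and between 1.52 and 6.51 on the other 33, so that the 2 sets did not overlap. Cxcl2, its neighbour, lay between -8.99 and -6.11 against -3.22 to 3.59, but its spot was not well above background on any of the 6 arrays, so the lower values are upper bounds. Ccl3 and Ccl4, ligands made by activated macrophages, lay between -6.12 and -3.59 and between -4.95 and -1.02 on the 6 arrays, against -2.27 to 5.06 and 0.24 to 7.36 on the others. On the 6 arrays Cxcl1 was above background on 4, and Ccl3 and Ccl4 on 5 each.

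In all, 8 of the 48 genes were lower on the 6 arrays without overlap, and 0 were higher, whereas 1.67% of all genes tested were lower and 2.15% were higher in this way. The other 4 were Ccl7 (-4.86 to -0.37 against 0.32 to 6.12), Cxcl10 (-6.13 to 0.15 against 1.65 to 4.87), Cxcl16 (-3.02 to -1.92 against -1.50 to 2.16) and the receptor Cxcr4 (-4.51 to -2.51 against -2.20 to 3.41). Ccl2, which attracts monocytes, overlapped slightly, at -1.83 to 0.96 against 0.17 to 7.38. The spot of Ccl2 was saturated on 7 of the 39 arrays, that of Ccl4 on 3 and that of Cxcl1 on 2, so their levels on those arrays are lower bounds. For Cxcl1 the highest level was among these, but not for Ccl4. Cxcl3, which carries the same promoter pattern, lay between -8.86 and -5.76 against -6.47 to 2.32, but its spot was not above background on any of the 6 arrays or on 3 of the others, so an overlap cannot be read from it. Ccl6, a ligand of Ccr1 made by macrophages, overlapped widely at 0.46 to 4.46 against 1.54 to 5.38, and the monocyte receptor Ccr2 lay between -2.99 and 0.65 against -3.72 to 0.81.

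The 6 arrays differed in other ways too. The mean of 8 skeletal muscle genes was 0.76 to 7.65 on them and -4.35 to 5.80 on the others, that of 12 macrophage genes was -1.53 to 2.08 against -0.38 to 2.42, and that of 6 endothelial genes was 1.29 to 2.09 against 1.95 to 4.75. The part of these differences in the chemokine levels was not tested. In tissue RNA, fewer cells of a type and less RNA per cell cannot be told apart. For each comparison below, the count of genes with an unadjusted p under 0.05 is given with all arrays and again without these 6.

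**Figure D1:**
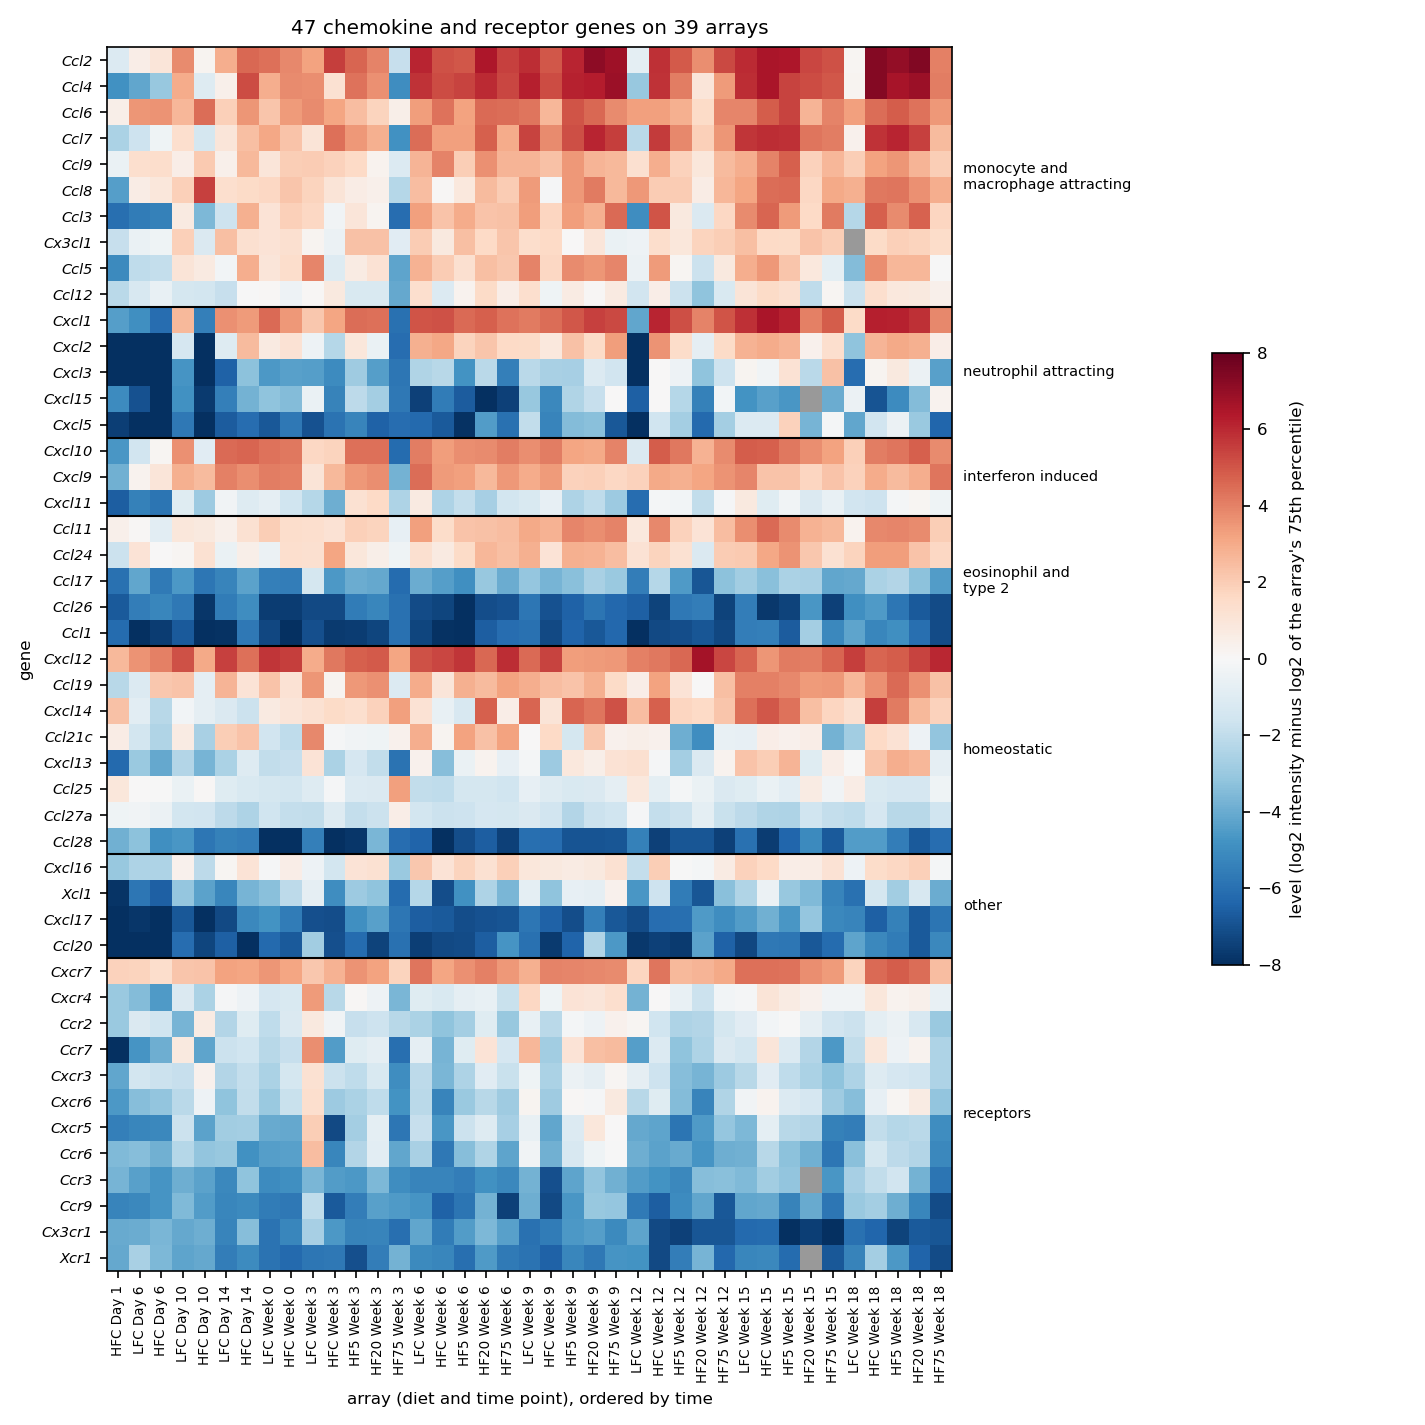
Level (colour, log2 relative to the 75th percentile of the array, limited to ±8) of 47 of the 48 genes (rows, by role) on the 39 arrays (columns, ordered by time), with grey for spots left out by an outlier flag. The columns of HFC Day 1, LFC Day 6, HFC Day 6, HFC Day 10, HF75 Week 3 and LFC Week 12 stand out as blue in Cxcl1, Cxcl2, Ccl3 and Ccl4.

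**Figure D2:**
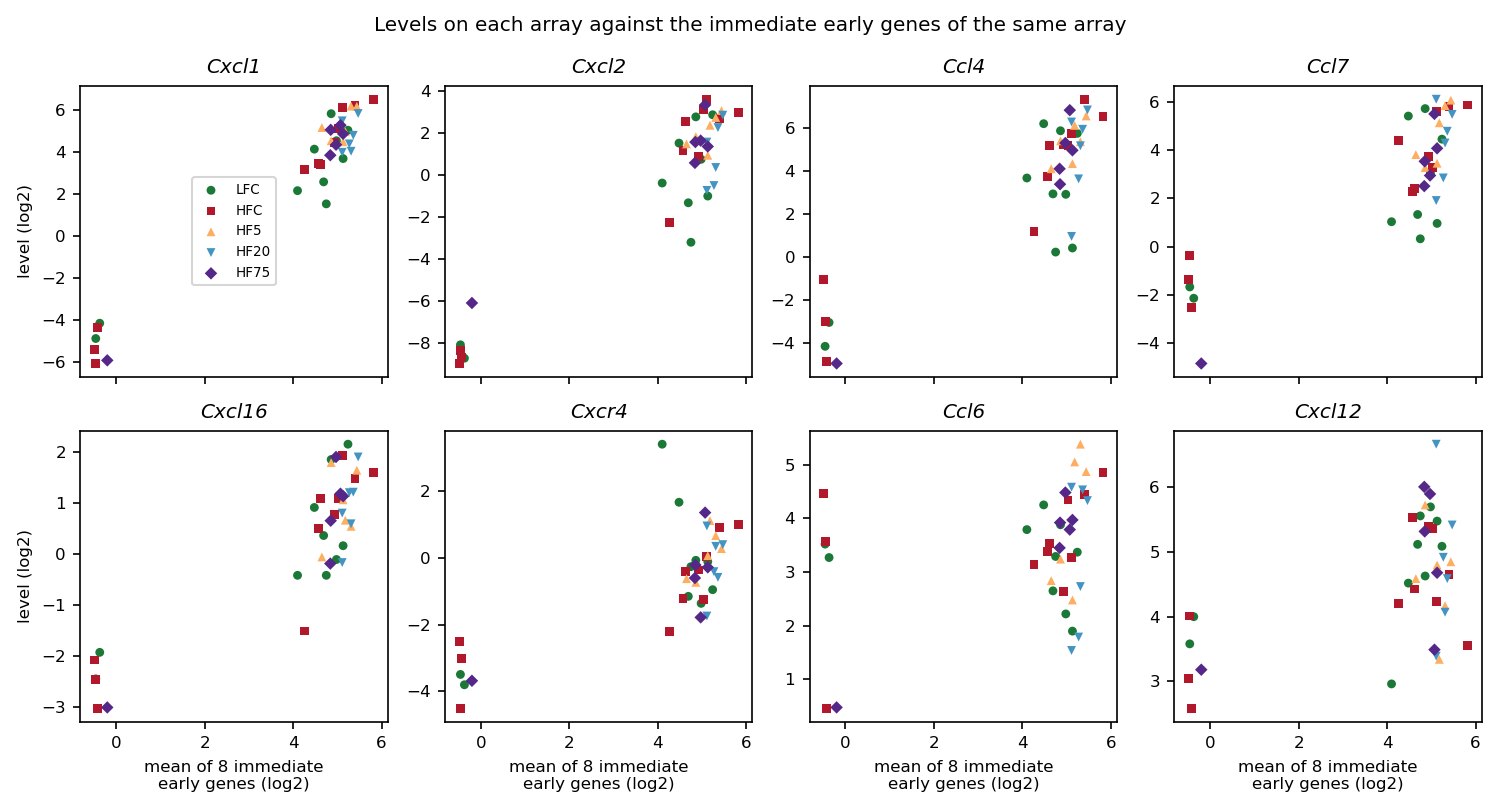
Level of 8 genes (vertical axes, log2) against the mean of 8 immediate early genes on the same array (horizontal axes, log2), 1 point per array, coloured by diet. The 6 arrays at the left lie below all others for Cxcl1, Cxcl2, Ccl4, Ccl7, Cxcl16 and Cxcr4, but overlap with them for Ccl6 and Cxcl12.

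The first comparison asked how the HFC diet changed the family over the 10 time points measured with both diets. By limma, an adjusted p under 0.05 was reached by 0 of 48 genes and by 0% of all 22714 genes tested, and 3 of 48 had an unadjusted p under 0.05, against 5.85% of all genes. Of the 3, 1 was higher in HFC and 2 were lower, against 1.67% and 4.18% of all genes, and 43.2% of all genes had a positive change. Without the 6 arrays the count was 3 as well (9.19% of all genes), with Cxcl11 (-1.11, p = 0.0269) in place of Ccr9 (-1.35, p = 0.0656). The median log2 change was -0.10 over the family and -0.06 over all genes. By role, 8 of 10 monocyte and macrophage attracting ligands had a positive change (median 0.82) and 1 had an unadjusted p under 0.05, while 10 of 13 receptors had a negative change (median -0.17) and 1 had an unadjusted p under 0.05. On the same arrays 12 of 12 macrophage genes had a positive change (median 0.65, 5 with an unadjusted p under 0.05) and 9 of 9 B lymphocyte genes a negative one (median -1.34, 1 with an unadjusted p under 0.05), and none had an adjusted p under 0.05. Without the 6 arrays, 2 of the macrophage genes (median 0.71) and 0 of the B lymphocyte genes (median -1.55) had an unadjusted p under 0.05, and 0 of the receptors did.

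Ccl9, a mouse ligand of Ccr1 made by macrophages, ranged from 0.42 to 2.90 over the LFC arrays (median 1.63) and from -0.53 to 3.97 over the HFC arrays (median 2.34). HFC exceeded LFC at 8 of 10 time points, with a log2 change of 0.95 ± 0.27 (SE), with an unadjusted p of 0.004 and an adjusted p of 0.805 in limma. The exact sign-flip permutation test over the 10 time points, two-sided as all tests here, gave p = 0.0137. Without the 6 arrays the change was 0.89 (unadjusted p = 0.0236 in limma).

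Ccl28, an epithelial ligand of Ccr10, had the smallest p of the family (fitted change -1.13 ± 0.31 SE, unadjusted p = 0.00316, adjusted p = 0.805 in limma, and -0.93 without the 6 arrays), but it was well above background in both diets on Days 6, 10 and 14 alone. The difference was -1.61, -1.12 and -0.14 on these days. At Weeks 0, 6, 9 and 15 neither spot was above background, so the fitted change, its error and its p are made in part of background values and give no size. Ccr9, the receptor of Ccl25, gave -1.08 ± 0.49 (SE, unadjusted p = 0.0473 in limma; exact permutation p = 0.0586) with 4 of 10 differences above 0. Its spot was not well above background in HFC at Week 3, Week 9 and Week 12 or in LFC at Week 9, so the differences of those weeks have no exact size. On the LFC array of Week 3 the B lymphocyte list was at its highest (1.27).

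The next 9 genes were followed in every comparison. Ccl2 itself was at -0.76 to 6.10 in LFC (median 3.5) and at -1.11 to 7.35 in HFC (median 4.96). Its change of 1.27 ± 0.94 (SE) had an unadjusted p of 0.205 in limma, and 6 of 10 differences were above 0, of which that of Week 15 came from spots saturated in both diets. It was 0.67 without Week 12, 0.61 without Week 18 and 0.06 with array weights. Its receptor Ccr2 had a change of 0.27 ± 0.52 (unadjusted p = 0.618), which was -0.19 without Day 10 and 0.08 without the 6 arrays. For the homeostatic ligands, in the same limma fit, the change was -0.22 ± 0.31 for Cxcl12 (unadjusted p = 0.488), -0.44 ± 0.63 for Ccl19 (p = 0.50) and -1.04 ± 0.57 for Cxcl13 (p = 0.0933). For Cxcl14 it was 0.00 ± 0.62 (p = 0.998), and -0.07 without the arrays low in immediate early genes. For Ccl21c, whose near-identical Ccl21 copies the probe may not separate, it was -0.40 ± 0.70 (p = 0.581), and 0.05 without those arrays. For Cx3cr1, the receptor of Cx3cl1 on resident macrophages and monocytes, it was -0.32 ± 0.41 (p = 0.446), and 0.12 with array weights. For Ccr7, the receptor of Ccl19 and Ccl21, it was -1.16 ± 1.1 (p = 0.315), and -0.38 without Week 3, where the difference was -8.16. Without the 6 arrays the change was 1.32 for Ccl2, -0.12 for Cxcl12, -1.05 for Ccl19, -0.93 for Cxcl13 and -1.54 for Ccr7. With all arrays, each of these differences was smaller than 2 of its standard errors, and their errors leave room for changes of over 1 in the log2 scale in several genes.

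From Week 3 to Week 18 the difference between HFC and LFC was also estimated in a fit of all 30 arrays of those weeks. By limma, an adjusted p under 0.05 was reached by 0 of 48 genes (0% of all genes), and 7 had an unadjusted p under 0.05 (3 higher and 4 lower in HFC), against 5.13% of all genes (2.04% higher and 3.09% lower). A positive change was found for 42.6% of all genes. Without the arrays low in immediate early genes, of which LFC Week 12 and HF75 Week 3 fall in these weeks, the count was 4 of 48 (8.33%), against 13.1% of all genes. It was 0 with array weights, against 5.45% of all genes. The 3 genes with the smallest p were Ccl28 (-1.38 ± 0.53, p = 0.0165), Ccr9 (-1.73 ± 0.72, p = 0.025) and Cxcr7 (0.98 ± 0.41, p = 0.0259), and the adjusted p in limma was 0.838 for the family's best genes. In no week was Ccl28 above background in both diets, so its value is not a measured difference, and the limits given above for Ccr9 hold here too. Of the other genes, Cx3cr1 gave -1.04 ± 0.50 (unadjusted p = 0.0465 in limma) and -0.69 (p = 0.162) without those arrays, and its spot was above background in both diets at Weeks 3 and 6 alone. Over the alternatives run, its change lay between -1.33 and -0.12. Beside Cx3cr1 and Ccl2, the smallest p of the genes followed in every comparison was that of Cxcl13 (-1.58 ± 0.96, p = 0.114). Without those arrays Ccl28, Ccr9 and Cxcr7 gave -1.24 (p = 0.0436), -1.99 (p = 0.0161) and 0.84 (p = 0.0686) in limma. Cxcr7, also called Ackr3, is an atypical receptor that takes up Cxcl12.

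Cxcl1 and Ccl2 showed how single arrays set these values. The HFC minus LFC difference of Cxcl1 was 1.02 at Week 3, 0.07 at Week 6, 0.32 at Week 9, 10.27 at Week 12, 0.69 at Week 15 and 4.70 at Week 18. All 6 were positive (exact permutation p = 0.0312, the smallest that 6 time points allow), but only those of Week 12 and Week 18 exceeded 2. The HFC spot was saturated at Week 12 and Week 15, so these 2 differences are lower bounds. The the fitted change was 2.84 ± 1.35 (SE), or 1.5 without the arrays low in immediate early genes. The difference of Ccl2 was 2.32 at Week 3, -1.0 at Week 6, -0.96 at Week 9, 6.60 at Week 12 and 7.18 at Week 18. At Week 12 the HFC spot was saturated, so that value is a lower bound, and at Week 15 both spots were saturated, so the difference has no size. With the values as measured, the exact permutation p of Ccl2 was 0.219, and its fitted change was 2.46 ± 1.07, or 1.75 without the arrays low in immediate early genes. The immediate early list, whose 8 genes all had a positive change (median 1.30; 7 of 8 and 0.41 without those arrays), moved with both genes in this comparison, and its part was not tested.

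The test of whether the HFC effect differed between late (Week 3 to Week 18) and early (Day 6 to Week 0) time points gave 0 of 48 genes at an adjusted p under 0.05 in limma (0% of all genes) and 3 at an unadjusted p under 0.05, against 2.54% of all genes (0.643% higher and 1.89% lower, with 45% positive). These were Cx3cr1 (-1.79 ± 0.69, p = 0.0248), Cxcl1 (5.49 ± 2.16, p = 0.028) and Ccr2 (-2.14 ± 0.90, p = 0.0373), each with an adjusted p of 1 in limma. Without the arrays low in immediate early genes Cxcl1 gave 2.04 (p = 0.134) and Ccr2 gave -1.49 (p = 0.0933), while Cx3cr1 gave -1.92 (p = 0.0362), so that the count was 1 (4.24% of all genes). Over the alternatives run, Cx3cr1 lay between -2.08 and -0.85, Cxcl1 between 2.04 and 6.28 and Ccr2 between -2.8 and -1.2. Cx3cr1 was not well above background in HFC at Weeks 9, 12, 15 and 18 or in LFC at Weeks 9, 15 and 18, so its late differences rest on Weeks 3 and 6, with a bound at Week 12. Of the other genes followed in every comparison Ccl2 had the smallest p (2.98 ± 1.79, p = 0.125).

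The comparisons of KAL-1 with HFC asked whether the formulation altered the family under the same diet, and they share the HFC arrays. In limma no comparison, neither the 3 single doses nor the doses together, brought any of the 48 genes to an adjusted p under 0.05 (0% of all genes). The unadjusted count was 0 of 48 for HF5 (1.32% of all genes), 2 for HF20 (4.69%), 3 for HF75 (4.86%) and 0 for the doses together (4.31%). Without the arrays low in immediate early genes these counts were 0, 3, 1 and 0, against 3.03%, 7.07%, 5.35% and 6.55% of all genes. Over all genes the higher and lower shares were 0.678% and 0.643% for HF5, 3.54% and 1.14% for HF20, 2.03% and 2.84% for HF75, and 2.52% and 1.79% for the doses together. The median change of the family was 0.08, 0.12, -0.49 and -0.18 in these comparisons, and that of all genes was 0, 0.08, 0.02 and 0.03.

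HF75 thus had the lowest median, and 38 of its 48 changes were negative, whereas the share of all genes with a positive change was 51.7% for HF75, 50% for HF5, 57.7% for HF20 and 54.3% for the doses together. All 10 monocyte and macrophage attracting ligands had a negative change (median -1.40, 2 with an unadjusted p under 0.05), as had 12 of 13 receptors (median -0.40, 1 with an unadjusted p under 0.05). Without HF75 Week 3 and LFC Week 12, 8 of the 10 ligands (median -0.55) and 8 of the 13 receptors (median -0.14) had a negative change, and 0 of either had an unadjusted p under 0.05. With all arrays, the 3 genes were Ccl9 (-1.14 ± 0.47, p = 0.0248; exact permutation p = 0.0625), Ccl7, a ligand of Ccr2 (-2.50 ± 1.15, p = 0.0392; exact permutation p = 0.0938), and Cxcr7 (-0.87 ± 0.41, p = 0.0467; exact permutation p = 0.0938), each with an adjusted p of 0.886 in limma and lower in HF75 at 5 of 6 time points.

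Single weeks set these values. The unadjusted count was 0 and the median -0.29 without Week 3, 1 and -0.24 without Week 15, and 0 and -0.26 without Week 18. These are among the weeks whose omission lowered the count, and it also rose when another week was left out. HF75 Week 3 was an array low in immediate early genes, and on it Ccl7 was not well above background, so its HF75 minus HFC difference at Week 3 is only bounded. The difference was -0.32 at Week 6, 1.76 at Week 9, -2.08 at Week 12, -1.80 at Week 15 and -3.30 at Week 18. Without the arrays low in immediate early genes, the family's median was -0.16 and 19 of 48 changes were positive, the change of Ccl7 was -1.33 (p = 0.126), that of Ccl9 was -0.77 (p = 0.107) and that of Cxcr7 was -0.76 (p = 0.097), and the only gene with an unadjusted p under 0.05 was higher in HF75 (Cxcl15, 2.53, p = 0.0318), although its spot was not well above background in HF75 at Week 6 or in HFC at Week 18. With all arrays, the 12 macrophage genes were all lower in HF75 (median -0.69, 4 with an unadjusted p under 0.05) and the 8 skeletal muscle genes were all higher (median 3.03, 3 with an unadjusted p under 0.05). Without the 6 arrays these medians were -0.40 and 1.03, with 2 and 1 genes at an unadjusted p under 0.05. Their part in the chemokine changes was not tested.

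For HF20 the 3 smallest p belonged to Ccr9 (1.54 ± 0.72, p = 0.0428), Ccl9 (-1.01 ± 0.47, p = 0.0448) and the mucosal ligand Cxcl17 (0.94 ± 0.46, p = 0.0523), with an adjusted p of 0.957 in limma. Of the arrays in this comparison, Cxcl17 was well above background at Week 3 and Week 15 in HF20 and at Week 15 in HFC only, so its difference has a size at 1 time point, and Ccr9 was not above it in HFC at Weeks 3, 9 and 12 or in HF20 at Week 18. In the same comparison 9 of 9 B lymphocyte genes were higher (median 1.81, 3 with an unadjusted p under 0.05), 12 of 12 macrophage genes were lower (median -0.69, 2 with an unadjusted p under 0.05) and 8 of 8 skeletal muscle genes were higher (median 2.03, 3 with an unadjusted p under 0.05). Over the 33 arrays used for correlations, Ccr9 had r = 0.76 with the B lymphocyte list and Ccl9 r = 0.81 with the macrophage list, and the part of these lists in the changes was not tested. Under another background correction (normexp) 13 of the 48 genes reached an adjusted p under 0.05 in HF20, these 3 among them, but so had 9928 of all genes. If Week 12 is named as in the deposited ratios, which exchange the HF20 and HF5 arrays, 0 of the 48 genes had an unadjusted p under 0.05 for HF20 in place of 2. For HF5 the 3 smallest p belonged to Ccr6, the receptor of Ccl20 (1.04 ± 0.88, p = 0.245), the skin ligand Ccl27a (-0.40 ± 0.34) and Cxcl13, the ligand of Cxcr5 (1.09 ± 0.96), with an adjusted p of 1 in limma. For the doses together those genes were Ccl9 (-0.77 ± 0.39, p = 0.0588), the monocyte ligand Ccl12 (-0.88 ± 0.60) and Cxcr5 (1.18 ± 0.92, not above background on 5 of the HFC and KAL-1 arrays), also with an adjusted p of 1 in limma. The genes followed in every comparison had no unadjusted p under 0.05 against HFC in limma, and the smallest was that of Ccl2 in HF75 (-1.76 ± 1.07, p = 0.115; -0.76 without HF75 Week 3 and LFC Week 12). Their changes ran from -0.85 (Ccl21c) to 1.09 (Cxcl13) for HF5, from -0.83 (Ccl21c) to 1.40 (Ccr7) for HF20, from -1.76 (Ccl2) to 0.20 (Cxcl12) for HF75 and from -1.0 (Ccl21c) to 0.56 (Ccr7) for the doses together. These values moved widely over the alternatives run. In HF5, Ccl21c lay between -1.62 and -0.18 and Cxcl13 between 0.56 and 1.84. In HF20, Ccl21c lay between -1.42 and 0.07 and Ccr7 between 0.54 and 2.34. In HF75, Ccl2 lay between -2.47 and -0.63 and Cxcl12 between -0.03 and 0.70. With the doses together, Ccl21c lay between -1.74 and -0.5 and Ccr7 between -0.29 and 1.4. Ccl9 appeared in the comparisons of HFC with LFC and of HF20 and HF75 with HFC in opposite directions, which share the HFC arrays and are not independent of each other.

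**Figure D3:**
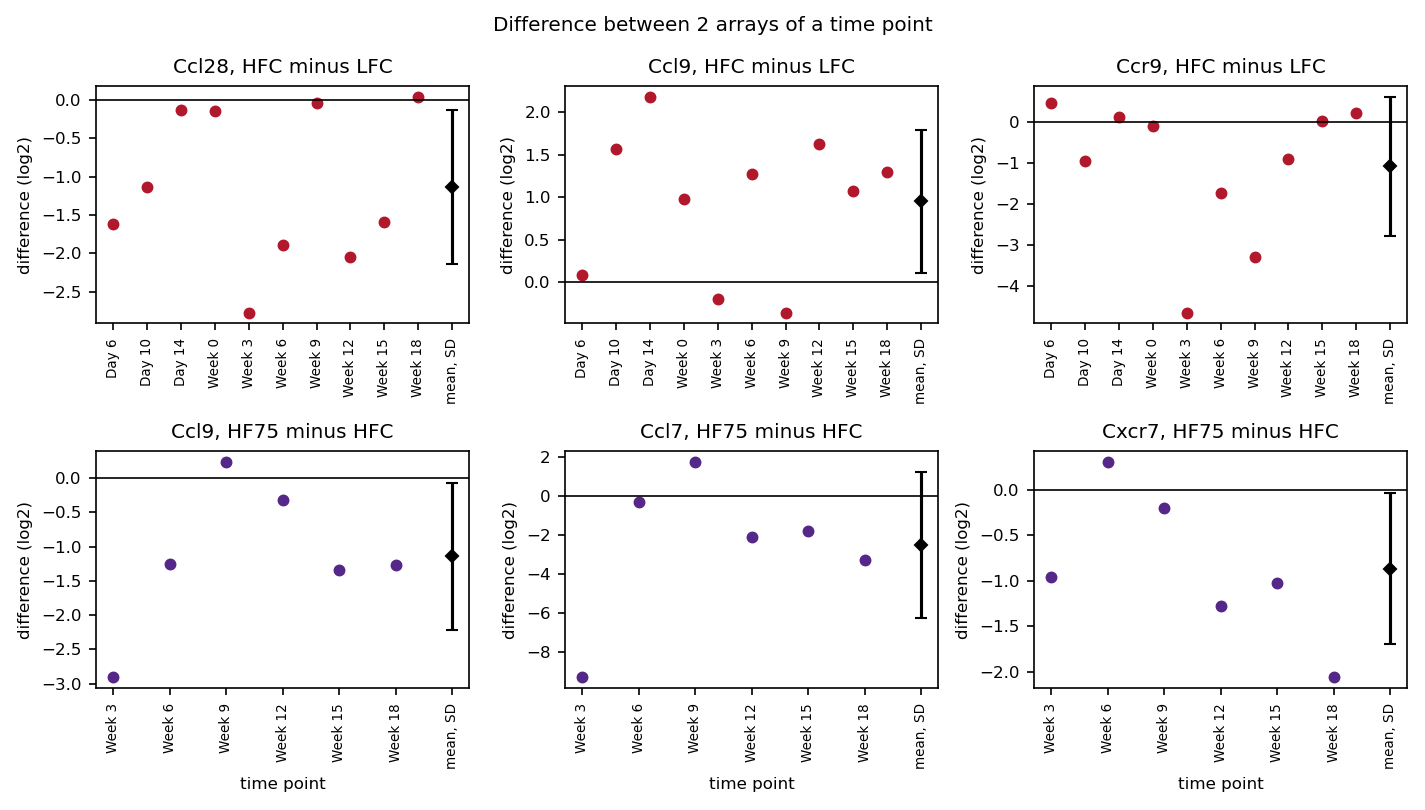
Difference in level (log2) between the HFC and LFC arrays (upper row, 10 time points) and between the HF75 and HFC arrays (lower row, 6 time points) of a time point, with the mean and SD at the right of each panel. Most points of Ccl9 lie above 0 for HFC and below 0 for HF75, and those of Ccr9 and Ccl7 spread widely.

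The change with time was estimated next. Over Week 3 to Week 18 with limma, the weeks as a random block and all 5 diets together, the change per week reached an adjusted p under 0.05 in 0 of 48 genes (0.0044% of all genes), and 6 had an unadjusted p under 0.05 (5 higher and 1 lower with time), against 5.72% of all genes (3.43% higher and 2.3% lower). Of the 48 slopes 41 were positive, against 57.4% of all genes. The slope was positive for 10 of 10 monocyte and macrophage attracting ligands and for 5 of 5 neutrophil attracting ligands, of which 1 and 2 had an unadjusted p under 0.05. For the 12 macrophage genes it was positive for 6, with none at an unadjusted p under 0.05. Without the arrays low in immediate early genes 37 of 48 slopes were positive, 6 genes had an unadjusted p under 0.05 (6.95% of all genes), and the slope was positive for 9 of 10 and 5 of 5 of these ligands. With array weights 16 genes had an unadjusted p under 0.05, against 9.29% of all genes.

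Cx3cr1 had the smallest p, with a change of -0.19 ± 0.04 log2 units per week (p = 0.000234, adjusted p = 0.781 in limma). Its 5 arrays lay between -6.05 and -2.65 at Week 3 (median -5.27), between -5.59 and -3.60 at Week 6 (median -4.37), between -6.00 and -4.40 at Week 9 (median -5.08), between -7.49 and -4.25 at Week 12 (median -6.87), between -8.42 and -6.13 at Week 15 (median -7.55) and between -7.38 and -5.98 at Week 18 (median -6.75). It was well above background on 2, 5, 2, 1, 0 and 0 of the 5 arrays, so its levels at Week 15 and Week 18 are bounds. The slope was -0.20 without the arrays low in immediate early genes and -0.24 to -0.16 with a week left out, but -0.03 under normexp and -0.06 with the mean of all probes. The second probe of the gene was above background on 7 arrays and had r = 0.01 with the one used over the arrays.

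Ccl8, a ligand of the monocyte chemoattractant group, had a median of 0.58 at Week 3 and 3.68 at Week 18 (0.20 ± 0.06 per week, p = 0.00156 in limma), and it was above background on all 30 arrays. Cxcl13, which guides B lymphocytes through Cxcr5, had a median of -1.97 at Week 3 and 2.24 at Week 18 (0.22 ± 0.08 per week, p = 0.00738; 0.18 without the arrays low in immediate early genes). Cxcl5, a ligand for neutrophils, had a median of -6.12 at Week 3 and -2.97 at Week 18 (0.30 ± 0.09 per week, p = 0.00385), but its highest median, -1.08, was at Week 15, and it was above background on 2, 1, 4, 3, 5 and 3 of the 5 arrays of the 6 weeks. The adjusted p of these genes in limma was 0.781 as well. Among the other genes followed in every comparison the smallest p was that of Ccl21c (-0.17 ± 0.09 per week, p = 0.069). The 5 arrays of a week had mostly been scanned on 1 day, so week and scan day cannot be told apart.

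Late time points were also compared with early ones in LFC and HFC, with the time points as a random block. Early and late arrays had been scanned on different days, so period and scan day cannot be told apart. By limma, an adjusted p under 0.05 was reached by 0 of 48 genes (0% of all genes) and 10 had an unadjusted p under 0.05, all higher at the late time points, against 7.65% of all genes in either direction, 3.41% higher and 4.24% lower. The median change was 0.98 over the family and -0.01 over all genes, and 40 of 48 changes were positive, against 49.3% of all genes. Without the arrays low in immediate early genes, which were 3 of the 8 early arrays and 1 of the 12 late ones, 4 genes had an unadjusted p under 0.05 (5.51% of all genes), the median was 0.75 and 39 changes were positive. With array weights the count was 19, against 10.7% of all genes.

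Cxcl14, a homeostatic ligand found in many epithelia and stromal tissues, lay between -2.19 and 0.98 on the 8 early arrays (median -0.78) and between -0.58 and 5.56 on the 12 late ones (median 2.03), with a change of 3.35 ± 0.87 (p = 0.000976, adjusted p = 0.317 in limma) and 3.04 without the arrays low in immediate early genes. Ccl9 lay between 0.42 and 2.60 early and between 1.26 and 3.97 late (1.23 ± 0.35, p = 0.002, adjusted p = 0.367 in limma; 1.36 without those arrays). Ccl24, which attracts eosinophils through Ccr3, lay between -0.55 and 1.37 early and between 0.69 and 3.32 late (1.55 ± 0.45, p = 0.00251, adjusted p = 0.375 in limma; 1.73 without those arrays). Cxcl13 lay between -4.07 and -1.03 early and between -3.40 and 2.27 late (2.57 ± 0.79, p = 0.00403, adjusted p = 0.398 in limma; 2.01 with p = 0.0625 without those arrays). Each of the 4 genes overlapped between the periods, although each late median lay above the highest early level.

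By role, 5 of 5 neutrophil attracting ligands had a positive late minus early change (median 3.28, 2 with an unadjusted p under 0.05; median 0.96 and 0 without the arrays low in immediate early genes), and 10 of 10 monocyte and macrophage attracting ligands did (median 1.39, 3 with an unadjusted p under 0.05; median 1.1 and 1 without those arrays). The immediate early genes were higher late in 8 of 8 cases (median 1.77) and the skeletal muscle genes lower in 8 of 8 (median -2.61, 3 with an unadjusted p under 0.05). Without those arrays 4 of the 8 immediate early genes were higher (median 0.06), and the muscle genes had a median of -0.69 with 0 at an unadjusted p under 0.05. The late minus early change of Cxcl12 was -0.10 ± 0.44 (p = 0.822 in limma), and it was 0.23 without Week 0, 0.09 without Week 3 and 0.01 without Day 14. That of Ccr2 was 0.45 ± 0.64 (p = 0.484). Both were smaller than their standard errors. The change was 2.01 ± 1.14 for Ccl2 (p = 0.0937), 1.35 ± 0.73 for Ccl19 (p = 0.0793), 1.32 ± 0.92 for Ccl21c (p = 0.168), 1.40 ± 1.24 for Ccr7 (p = 0.273) and -0.96 ± 0.57 for Cx3cr1 (p = 0.107) in the same limma fit. Without the 6 arrays these were 1.05, 1.04, 0.40, 0.76 and -0.74.

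**Figure D4:**
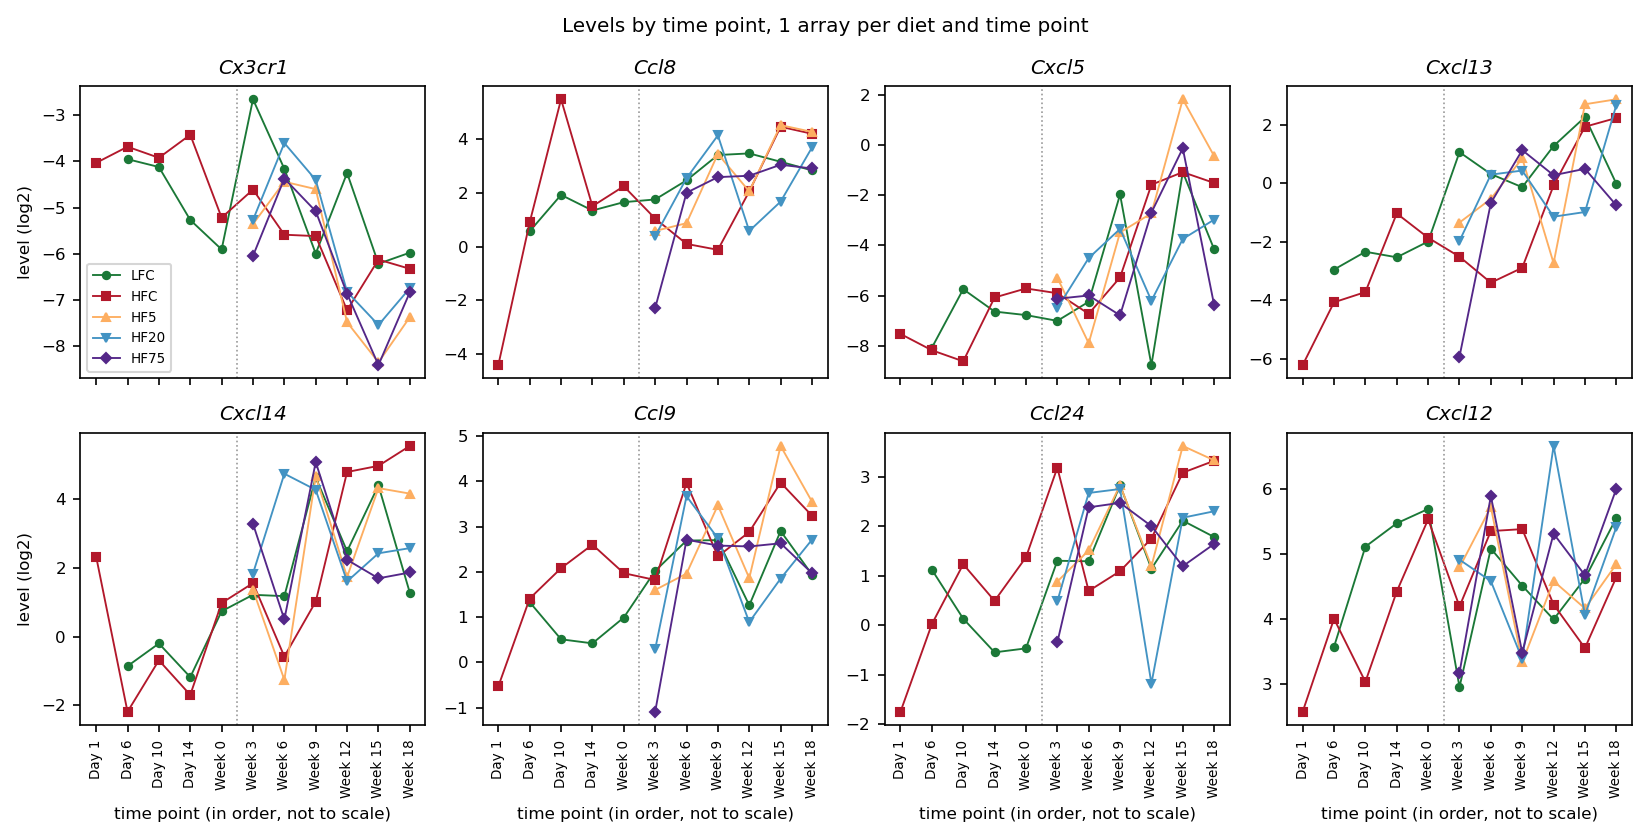
Level (log2) of 8 genes at each time point (in order, not to scale), 1 array per point, joined within each diet, with a dotted line between Week 0 and Week 3. Cx3cr1 was above background on 0 of 5 arrays at Week 15 and at Week 18, and the late points of Cxcl14, Ccl9 and Cxcl13 lie mostly above the early ones.

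Of the other genes of chemokine signalling, 32 were tested, among them the decoy receptors, G protein subunits, arrestins and the kinases downstream. None had an adjusted p under 0.05 in limma in any comparison, and between 0 and 2 had an unadjusted p under 0.05. With the arrays low in immediate early genes left out this was 4 for Week 3 to Week 18, where 13.1% of all genes had one, and 1 to 3 elsewhere. Rarres2 encodes chemerin, a chemoattractant and adipokine that acts through Cmklr1. Its change was positive for HFC against LFC (0.79 ± 0.27, p = 0.0132, adjusted p = 0.805 in limma) and negative for HF75 against HFC (-1.0 ± 0.35, p = 0.00989, adjusted p = 0.886 in limma), in comparisons that share the HFC arrays. Among 17 genes of NF-kB and inducers of chemokines, all 17 had a positive late minus early change (median 1.15), with 5 at an unadjusted p under 0.05 and none at an adjusted p under 0.05 in limma. Of the 17, 16 were positive (median 0.65) and 0 had an unadjusted p under 0.05 without the arrays low in immediate early genes.

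The levels of ligands were next set against those of their receptors. Since the arrays form 2 separate sets by immediate early genes, the correlations were taken over the 33 arrays that are not low in them, for 14 pairs, with permutation tests of 100000 resamples (smallest possible p 1e-05). The resamples exchanged arrays freely across time points, although arrays of a time point are not independent. The permutation p-values here and for the lists below may therefore be too small. The adjusted p of Pearson's r was under 0.05 for 8 pairs, and for 10 pairs after the mean of the time point had been subtracted. The share among pairs of other genes was not computed, so these counts cannot be read as particular to ligands and receptors. For Cxcl13 and Cxcr5 r was 0.44 (permutation p = 0.011, adjusted p = 0.021) and rho was 0.47 (permutation p = 0.0057), and r was 0.43 without the 2 arrays farthest from the median of the ligand and 0.72 within time points. For Ccl2 and Ccr2 r was 0.38 (permutation p = 0.028, adjusted p = 0.048), rho was 0.50 (permutation p = 0.0031), and r was 0.42 without 2 arrays and also within time points. This pair had an adjusted p over 0.05 in each of the 3 alternatives run, at r = 0.13 (adjusted p = 0.53) under normexp, 0.34 (0.087) under quantile normalization and 0.32 (0.14) over Week 3 to Week 18. The pair of Ccl19 and Ccr7 had r = 0.36 (permutation p = 0.037, adjusted p = 0.058), rho = 0.39 (permutation p = 0.024), 0.23 without 2 arrays and 0.54 within time points.

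Of these 8 pairs, those of Cxcl12 and of Cxcl9 were negative. Cxcl12, made by stromal cells, was lower on arrays where its receptor Cxcr4 was higher (r = -0.71, permutation p = 1e-05, adjusted p = 7e-05; rho = -0.67, permutation p = 4e-05; -0.61 without 2 arrays; -0.63 within time points). This depended on the probe, since another probe of Cxcl12, for a different RefSeq transcript and above background on all 39 arrays, had r = 0.02 with the one used and r = 0.40 with Cxcr4 (permutation p = 0.02; rho = 0.54, permutation p = 0.0018; 0.37 without 2 arrays; 0.43 within time points). The sign of the relation is therefore not settled for the gene. Cxcl9 and its receptor Cxcr3 had r = -0.47 (permutation p = 0.0055, adjusted p = 0.013), rho = -0.39 (permutation p = 0.026), -0.35 without 2 arrays and -0.45 within time points. The pair of Ccl20 and Ccr6 had r = 0.50 (permutation p = 0.0034, adjusted p = 0.012) and rho = 0.37 (permutation p = 0.037), but 0.21 without 2 arrays, so this relation rested on those arrays. Under normexp it did not, at r = 0.75, rho = 0.88 and 0.72 without 2 arrays. Ccl20 was above background on 7 of the 39 arrays, so most arrays behind either value gave a signal at the background.

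Each of the 48 genes was then set against the mean of the immediate early, macrophage and B lymphocyte lists on the same 33 arrays, which makes 144 relations adjusted together. The B lymphocyte list correlated positively with 16 genes and negatively with 2 at an adjusted p under 0.05. The weakest of these had r = 0.42 and r = -0.51, and 10.6% and 3.25% of all genes tested had an r at least as far from 0. Ccr7, which brings lymphocytes and dendritic cells to lymph nodes, had r = 0.91 (permutation p = 1e-05, adjusted p = 0.00011), rho = 0.87 (permutation p = 1e-05), 0.88 without 2 arrays and 0.94 within time points. For Ccr6 r was 0.94 and rho was 0.89, and for Cxcr5, the follicular receptor of B lymphocytes, r was 0.89 and rho was 0.87 (permutation p = 1e-05 and adjusted p = 0.00011 for the r of both). Ccr6 kept an r of 0.90 and Cxcr5 an r of 0.84 without 2 arrays. The Cxcl12 probe used ran the other way (r = -0.62, permutation p = 0.00011, adjusted p = 0.00079; rho = -0.50, permutation p = 0.0034; -0.46 without 2 arrays; -0.55 within time points), but the other probe did not, at r = 0.18 (permutation p = 0.33), rho = 0.23 and 0.52 within time points.

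The 4 arrays highest in the B lymphocyte list were all from Week 3 and Week 9. At Week 3 Ccr7 was at 3.70 in LFC, -0.72 in HF20, -0.95 in HF5, -4.46 in HFC and -6.02 in HF75, where it was not above background, and the B lymphocyte list was at 1.27, -2.28, -3.53, -5.43 and -4.80 on the same arrays. At Week 9 Ccr7 was at 2.63 in LFC, 2.43 in HF20, 1.12 in HF5, 2.50 in HF75 and -2.76 in HFC, where the list was at -1.70, -0.76, -1.98, -1.0 and -5.87. The HFC array was the lowest of Week 9 in both measures. For Ccr7 the order of LFC and HFC was the other way at Week 12 (-4.40 and -1.11), Week 15 (-1.44 and 0.98) and Week 18 (-1.99 and 0.89). LFC Week 12 is an array low in immediate early genes. Each of these values comes from 1 array and has no replicate check, and the part of B lymphocyte RNA in the chemokine levels was not tested.

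**Figure D5:**
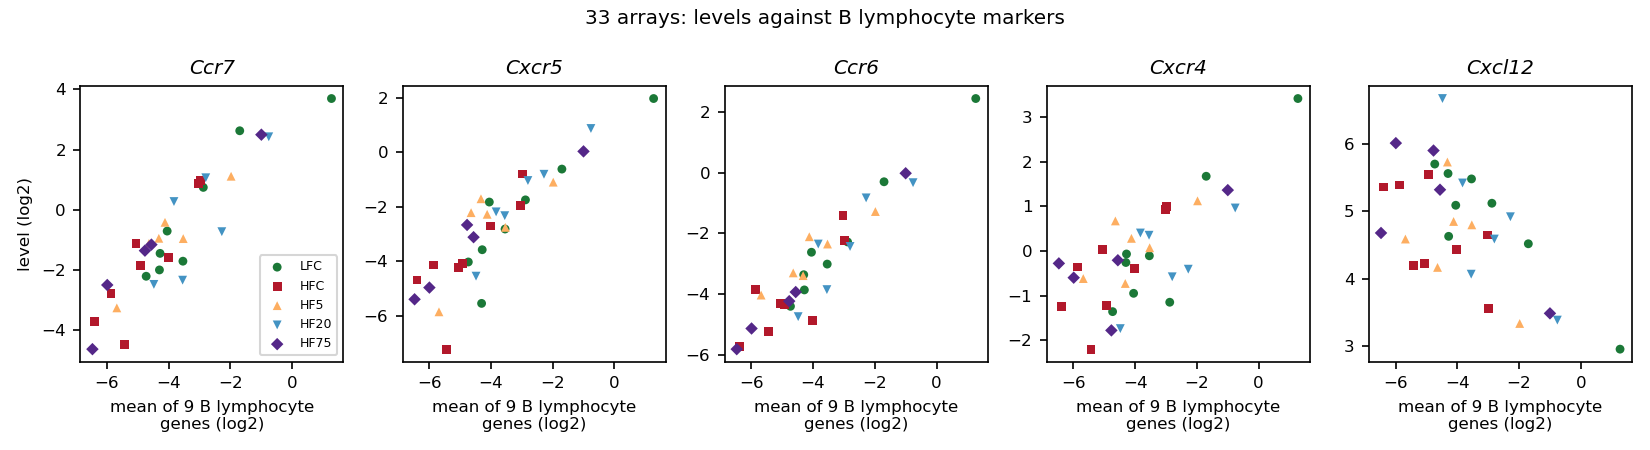
Level of 5 genes (vertical axes, log2) against the mean of 9 B lymphocyte genes (horizontal axes, log2) on the 33 arrays not low in immediate early genes, coloured by diet. Ccr7, Cxcr5, Ccr6 and Cxcr4 are higher and the Cxcl12 probe used is lower where the list is higher, and the LFC array of Week 3 lies farthest to the right at 1.27.

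The macrophage list correlated positively with 22 genes and negatively with 2 at an adjusted p under 0.05. The weakest of these had r = 0.41 and r = -0.41, and 11% and 10.7% of all genes tested had an r at least as far from 0. Ccl9 had r = 0.81 (permutation p = 1e-05, adjusted p = 0.00011), rho = 0.82 (permutation p = 1e-05), 0.81 without 2 arrays and 0.88 within time points. Ccl6 had r = 0.79 and rho = 0.76 (permutation p = 1e-05 for both), and r was 0.85 within time points. Ccl2 had r = 0.61 (permutation p = 9e-05, adjusted p = 0.00068) and rho = 0.63 (permutation p = 0.00014), with 0.62 without 2 arrays. The immediate early list correlated positively with 13 genes, with r of 0.42 or higher, as for 5.71% of all genes tested, and negatively with 0 on these 33 arrays, and within time points with 7 positively and with 1 negatively (Ccl25, r = -0.40, adjusted p = 0.046 in the permutation test). The highest values were those of Cxcr7 (r = 0.73, permutation p = 1e-05; rho = 0.76, permutation p = 1e-05; 0.69 without 2 arrays) and Cxcl1 (r = 0.70, permutation p = 1e-05; rho = 0.63, permutation p = 0.00015; 0.62 without 2 arrays), and they were 0.67 and 0.65 within time points.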

How the data were processed

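Total RNA of mouse subcutaneous adipose tissue had been hybridised by the authors to 1-colour Agilent arrays. Per the file headers, the deposited spot intensity values come from Agilent Feature Extraction 10.5.1.1 (the submitters' processing notes name 9.1), which had subtracted a fitted background surface and divided out a spatial trend, with no normalization between arrays. The deposited flags (well above background, saturated, outlier) are scores of 0 or 1. The authors also deposited GeneSpring GX log2 ratios, which set each array against LFC at the same time point, and these were used only as an alternative.

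The log2 intensity minus the log2 75th percentile of the array was taken for the brightest probe of each gene name, without outlier spots. Genes well above background on at least 6 of 39 arrays were tested (22714 genes). The intensity at the 75th percentile was 108 to 1285 per array, and the number of arrays limits the precision. Linear models were made in R 4.3.3 (limma 3.58.1), blocking on the time point (random for the comparisons over time, with a correlation of 0.158 for the change per week and 0.262 for late against early). Benjamini-Hochberg adjustment ran over all genes tested. Scripts were tested on simulated data. The design had planned correlations over all 39 arrays, but 33 were used because the arrays form 2 separate sets. Of 17 pairs, 14 could be computed.

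The genes, roles, lists and patterns were chosen with earlier results of these data known. In each comparison the genes with an adjusted p under 0.05 were to be named (up to 5 each way), or else the 3 with the smallest p, with Ccl2, Ccr2, Cx3cr1, Cxcl12, Cxcl14, Ccl19, Ccl21a (for which the array names Ccl21c), Cxcl13 and Ccr7 always named, which was done by value or, in most comparisons, by the range or the smallest p among them. Cxcl1 was added after its values were seen. Promoter sequences and gene positions come from RefSeq (GRCm38.p6), whereas the array annotation used mm9, and no coordinates were converted. The values of 1 receptor, which counts among the genes, are not reported here.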

Additional observations from a re-analysis of the deposited data

Results flagged for a closer look

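In the groups of 6 to 10 arrays, the highest and lowest arrays of each of the 48 genes were examined with Dixon's ratio at the 95% level, and 20 of 192 cases (10.4%) passed, where chance alone passes about 1 in 20. Over all 22714 genes tested, 9.41% of cases passed in the same groups, so the share in the family was close to that of the genes as a whole. HFC, with 11 arrays, was not examined in this way. Of the 20 cases, 14 were on the HF75 array of Week 3, which was low in immediate early genes. This was 29.2% of the 48 genes, against 11.5% of all genes.

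On that array 8 ligands known to be inducible were at their lowest of the 6 HF75 arrays, with Ccl2 at -1.83, Ccl3 at -6.12, Ccl4 at -4.95, Ccl7 at -4.86, Cxcl1 at -5.94, Cxcl2 at -6.11, Cxcl9 at -3.78 and Cxcl10 at -6.13. The macrophage-associated ligands Ccl6 (0.48), Ccl8 (-2.28) and Ccl9 (-1.09) and the follicular ligand Cxcl13 (-5.93) were the lowest there as well. Of these, Ccl3, Ccl4, Ccl7, Cxcl1, Cxcl2, Cxcl10 and Cxcl13 were not well above background on that array, so their levels are upper bounds. Ccl25, the ligand of Ccr9, and Ccl27a, the ligand of Ccr10, were instead the highest, at 3.28 and 0.54. The skeletal muscle list was at 7.65 on this array, the highest of all 39, and the macrophage list at -1.53, the lowest.

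Of the other 6 cases, 3 were on the Week 12 arrays whose HF5 and HF20 names differ between the files, namely Ccl17 (-6.83, lowest) and Ccl19 (0.03, lowest) in HF20 and Cxcr5 (-5.85, lowest) in HF5. Ccl17 and Cxcr5 were not well above background there. Ccl1 was highest in HF20 at Week 15 (-2.75), an array with 4936 outlier spots, Ccr6 was highest in HF75 at Week 9 (-0.02), where the B lymphocyte list was also the highest of HF75 (-1.0), and Xcr1 was highest in LFC at Day 6 (-2.60).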

How the results depend on the processing

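Alternatives were normexp background correction, quantile normalization, the median in place of the 75th percentile, an intensity trend with a robust prior, other filters and probe rules, outlier spots kept, array weights, no time-point block, the scan day or slide as a block, an unmoderated comparison, the deposited ratios, the exchanged Week 12 arrays, each time point left out, and the 6 arrays low in immediate early genes left out. The last, the use of 33 arrays for correlations and the alternatives of the list relations were chosen after the data had been seen, as was the other probe of Cxcl12. The number of genes of the family with an adjusted p under 0.05 was 0 in 203 of 205 cases, including every time point left out (0 to 0). The exceptions were HF20 against HFC under normexp, with 13 genes, where 9928 of all genes were called, the median of all genes was 0.52 and that of the family 0.29, so that the family lay lower than the genes as a whole; and the change per week with no time-point block, with 1 gene (Cx3cr1, adjusted p = 0.0461). Ccr9, Ccl9 and Cxcl17 were among the 13. The cause of these shifts was not tested.

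For HFC against LFC, Ccr2 (0.27) was -0.05 under normexp and -0.19 to 0.49 with a time point left out. Cxcl14 (0.00) was -0.02 under quantile normalization, -0.29 with array weights, -0.12 with the scan day as block, 0 with the deposited ratios, -0.07 without the 6 arrays and -0.47 to 0.40 with a time point left out, Ccl21c (-0.40) was 0.05 without the 6 arrays, and Cx3cr1 (-0.32) was 0.05 under quantile normalization and 0.12 with array weights. For KAL-1, Ccr7 with the doses together (0.56) was -0.15 with array weights and -0.29 to 1.4 with a time point left out, Ccl21c in HF20 (-0.83) was -1.42 to 0.07 and Cxcl12 in HF75 (0.20) was -0.03 to 0.62. For late against early, Cxcl12 (-0.10) was 0.18 with the mean of all probes and -0.37 to 0.23 with a time point left out. None of these had an adjusted p under 0.05. Only these 8 of the 58 named changes had another sign in any alternative run.

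The number of genes with an unadjusted p under 0.05 moved more. Array weights took it from 7 to 0 for Week 3 to Week 18 (all genes 5.45%), from 3 to 0 for HF75 (6.78%), from 6 to 16 for the change per week (9.29%) and from 10 to 19 for late against early (10.7%). Normexp took it from 3 to 11 for HFC against LFC (22.9%, all genes 20.4%), from 2 to 14 for HF20 (29.2%, all genes 51.7%) and from 0 to 6 for the doses together (12.5%, all genes 26.5%), and the slide as a random block took it from 3 to 8 for HF75 (all genes 8.87%). With a time point left out it ran from 2 to 5 for HFC against LFC, 1 to 8 for the late minus early difference, 2 to 9 for Week 3 to Week 18, 0 to 7 for HF20, 0 to 4 for HF75, 0 to 0 for HF5, 0 to 3 for the doses together, 5 to 9 for the change per week and 6 to 17 for late against early. Of the pairs, 8 had an adjusted p under 0.05, and 4 did under quantile normalization. Under normexp 8 did too, but not the same pairs, since Xcl1 with Xcr1 (r = 0.01, then 0.76 with an adjusted p of 7e-05), Cxcl10 with Cxcr3 (-0.12, then -0.53, 0.0038) and Cx3cl1 with Cx3cr1 (-0.27, then -0.52, 0.0051) passed only there. Ccl2 with Ccr2 lost its adjusted p in all 3 alternatives, Cxcl13 with Cxcr5 under normexp and quantile normalization, Ccl7 with Ccr2 under normexp, and Ccl20 with Ccr6 and Cxcl9 with Cxcr3 under quantile normalization. Ccl11 and Ccr3 had r = 0.26 and -0.03 under normexp. Genes correlated with the immediate early list numbered 13, and 32 under normexp, 16 in each direction, where 17% and 48.6% of all genes had an r at least as far from 0 as these. Of the relations with lists named above, 9 were run in 3 alternatives, and each kept its sign and an adjusted p under 0.05. Under normexp, however, 41.8% of all genes had an r of 0.56 or higher with the B lymphocyte list, the weakest positive r called in the family. For the weakest negative r, -0.42, the share was 12%. For the macrophage list these shares were 4.72% and 3.76%. A call kept under normexp thus sets the genes little apart for the B lymphocyte list. With the other probe, Cxcl12 had r = 0.40 with Cxcr4 and 0.18 with the B lymphocyte list, in place of -0.71 and -0.62.

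The diets are paired by time point, and replicate numbers, which follow the order of deposition, were not used to pair arrays. The slide as a random block could not be fitted for LFC and HFC alone, and the deposited ratios could not serve comparisons over time. Genes above background on few arrays, such as Ccl1 (6 arrays), Ccl20 (7) and Ccl28 (12), are limited by signal over background.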
